A study of Mus musculus with 4 samples.

Results

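The genes described here lie in a stretch of mouse chromosome 7 with starts between 122.5 and 132 Mb in the deposited table. The table has 154 rows that start within these bounds. Rows of 3 name families and of 1 glycolytic gene were left out by name, which gave 147 members of 21958 rows in all. The stretch was chosen by the measured levels of Gsg1l and Cuzd1, which lie within it and were already known to differ between the genotypes in these libraries. The question was whether they stand alone or sit in a block of shifted genes. Because the same contrast chose the stretch, the differences of its members are a description and carry no test.

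Ovary tissue was compared by RNA sequencing between ++Oxtr mice (genotype tg in the labels), which overexpress the oxytocin receptor, and wild-type mice (WT), with 2 libraries each (++Oxtr replicates 3 and 4, WT replicates 5 and 6). All females were taken in diestrus (the resting stage between ovulations), according to the submitters' design. Neither the labels nor the design name the transgene's promoter, the strain or the age. They also do not tie the replicates to separate mice, so any p-value rests on a spread that may not be the spread between mice. Levels are CPM (counts scaled to the TMM-adjusted library total), or FPKM where genes are compared with each other. Differences are log2 values of the edgeR fit, ++Oxtr minus WT. Their standard error (SE) was derived from the unshrunk coefficient of that fit and the F statistic of its test.

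Gsg1l encodes a claudin-like membrane protein that is an auxiliary subunit of AMPA-type glutamate receptors, the ion channels that carry fast excitatory signals in the brain. Such subunits set how fast the channel closes and recovers. Cuzd1 encodes a membrane protein with CUB domains and a zona pellucida-like domain. It is known from the mouse uterus, where estrogen raises it, and from the pancreas. Between them lie many housekeeping genes and the counterpart of a stretch of the human genome that is recurrently deleted or duplicated in developmental disorders.

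RefSeq promoter sequences (build GRCm38.p6, 250 bases before to 50 after the start of the gene) were found for 115 of the 147 members. Gsg1l was not among them. The promoter of Cuzd1 is shown with that of Cdcp3, its nearest neighbour, because the pair differed in pattern across the libraries. Cuzd1 is on the minus strand at chr7:131322243-131322542 and Cdcp3 on the plus strand at chr7:131174152-131174451 of that build. Capitals mark any of 4 motifs, searched on both strands: the TATA box TATAAA, the CCAAT box, the GC box GGGCGG and the core element AGGTCA of estrogen and other nuclear receptors.
Cuzd1: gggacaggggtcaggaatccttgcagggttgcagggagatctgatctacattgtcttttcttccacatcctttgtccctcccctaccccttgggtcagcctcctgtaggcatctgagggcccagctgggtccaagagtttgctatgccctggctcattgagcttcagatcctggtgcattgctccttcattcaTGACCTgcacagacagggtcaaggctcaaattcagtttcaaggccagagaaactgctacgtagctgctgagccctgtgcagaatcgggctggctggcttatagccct
Cdcp3: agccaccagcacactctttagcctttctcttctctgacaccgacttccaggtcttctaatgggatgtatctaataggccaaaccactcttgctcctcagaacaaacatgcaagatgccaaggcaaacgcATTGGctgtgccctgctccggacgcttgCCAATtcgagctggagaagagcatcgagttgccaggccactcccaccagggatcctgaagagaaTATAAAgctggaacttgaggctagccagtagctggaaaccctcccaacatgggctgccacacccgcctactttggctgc
The Cuzd1 window held 1 motif, the receptor element, read on the opposite strand with its first printed base at position -57 from the start of the gene. That element was in 16.3% of all 32851 RefSeq promoters of the same length. The Cdcp3 window held TATAAA at -29, a place usual for a TATA box, and CCAAT at -93 and, on the opposite strand, at -121. TATAAA was in 13.6% and CCAAT in 37.4% of all promoters. GGGCGG, held by neither window, was in 35.7%. GC content was 54.3% for Cuzd1 and 53.3% for Cdcp3. These matches are letters in a window, and no binding was measured.

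Cuzd1 (ENSMUSG00000040205) was detected in both ++Oxtr libraries and in neither WT library. It had 191 and 235 counts in ++Oxtr replicates 3 and 4, and 0 counts in both WT libraries. In FPKM these were levels of 5.56 and 6.80 in the ++Oxtr libraries, and 0 in each WT library. The groups did not overlap, and the ++Oxtr libraries were close to each other. The mean level was 14.03 ± 2.35 CPM in ++Oxtr (SD, n = 2). With 3 counts assumed over both WT libraries, equal to 0.0916 CPM, Cuzd1 would be 153-fold higher in ++Oxtr, a value that is no lower limit. From the counts alone, with no floor, the exact two-sided 95% interval of the ratio began lower, at 124-fold. That interval covers counting error only. Among the 122 members that were tested, Cuzd1 ranked 69 by mean FPKM in ++Oxtr. It passed the filter on low counts through its ++Oxtr counts alone, so its rank in WT, 122 and the lowest, was fixed beforehand. Another 9 members, not tested, had 0 counts in every library. In the deposited table it spans 13.7 kb on the minus strand, from 130910283 to 130924021.

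Gsg1l (ENSMUSG00000046182) was lower in ++Oxtr ovaries but still present there. It had 73 and 70 counts in the ++Oxtr libraries, and 395 and 373 in the WT libraries. As levels these were 4.73 and 4.675 CPM in ++Oxtr, against 23.5 and 23.4 CPM in WT. Replicates of a genotype were almost equal, and the groups were far apart. The log2 difference was -2.32 ± 0.22 (SE), so that the WT level was 4.99 times the ++Oxtr level (95% interval of the ++Oxtr over WT ratio 0.167 to 0.240, counting error only). In mean FPKM it ranked 108 among the 122 tested members in ++Oxtr and 70 in WT. The gene spans 204 kb on the minus strand, from 125477592 to 125681583, and shares no base with another row of the table.

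The labelled target and the tissue were checked first in the same libraries. Oxtr stood at 109.5 and 161 CPM in ++Oxtr, against 29.2 and 55.5 CPM in WT, in the direction of the labels. Granulosa markers summed to 3183 to 4144 CPM and oocyte markers to 358 to 723 CPM in the 4 libraries, so markers of ovarian cells were detected in each. The labels' extraction protocol names white adipose tissue, although every sample is labelled ovary. All 10 adipocyte markers of the list used here, Adipoq and Plin1 among them, were higher in both ++Oxtr libraries, with summed levels of 2097 and 1463 CPM in ++Oxtr and 215 and 207 CPM in WT, and none was at 0. Adipocyte markers thus separated the genotypes in the direction of Cuzd1 and in the opposite direction to Gsg1l. The part of these markers in the differences of both genes was not tested. Oviduct and ciliated markers summed to 245 and 3468 CPM in ++Oxtr replicates 3 and 4, and to 2840 and 1402 CPM in WT replicates 5 and 6, a pattern that neither gene shared. In whole tissue, fewer cells of a type and less RNA per cell cannot be told apart.

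**Figure D1:**
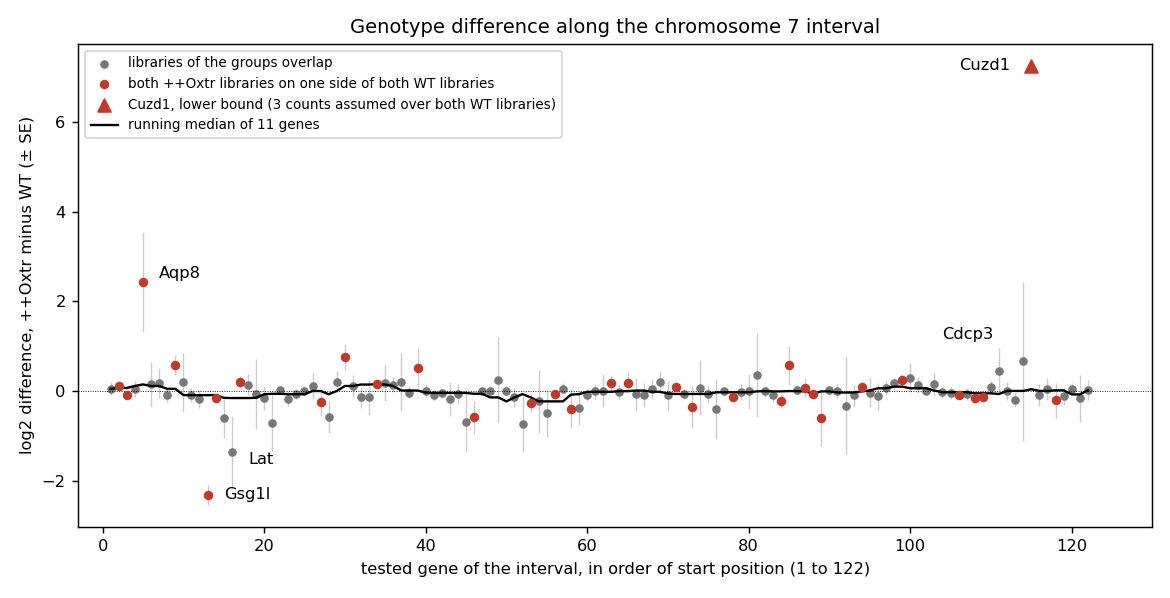
Log2 difference (++Oxtr minus WT, bars show SE) of the 122 tested members against their order of start position, with the running median of 11 genes as a line. Red points have both ++Oxtr libraries on one side of both WT libraries, and the line stays between -0.23 and 0.15 throughout. Cuzd1 is drawn at 7.26, for 3 counts assumed over both WT libraries, which the key calls a lower bound.

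The rest of the stretch was not shifted as a block. Of its 147 members, 122 passed the filter on low counts and were tested, and their median log2 difference was -0.02, against 0.00 over all 15311 genes tested and 0.01 over 1052 other genes of chromosome 7. Without Gsg1l and Cuzd1, the members' quartiles were -0.14 and 0.10. A value above 0 was found in 55 tested members, against 49.2% of all genes tested, and one within 0.5 of 0 in 106 (background 84.7%). One over 1 in size was found in 4, Cuzd1, Aqp8, Gsg1l and Lat (background 4.42%). In the plot of differences in order of position, the running median of 11 genes ran from -0.23 (centred on Maz) to 0.15 (centred on Mapk3). On the rest of chromosome 7 it ran from -0.26 to 0.34, and over all chromosomes from -0.62 to 0.78. The steps along the stretch were small too. The median was 0.08 over 6 tested members that start below 125 Mb, -0.09 over 12 from there to 126 Mb, and -0.06 over 49 up to 127 Mb. It was -0.01 over 33 up to 128 Mb, -0.04 over 8 up to 130 Mb, 0.02 over 10 up to 131 Mb and -0.04 over the last 4.

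**Figure D2:**
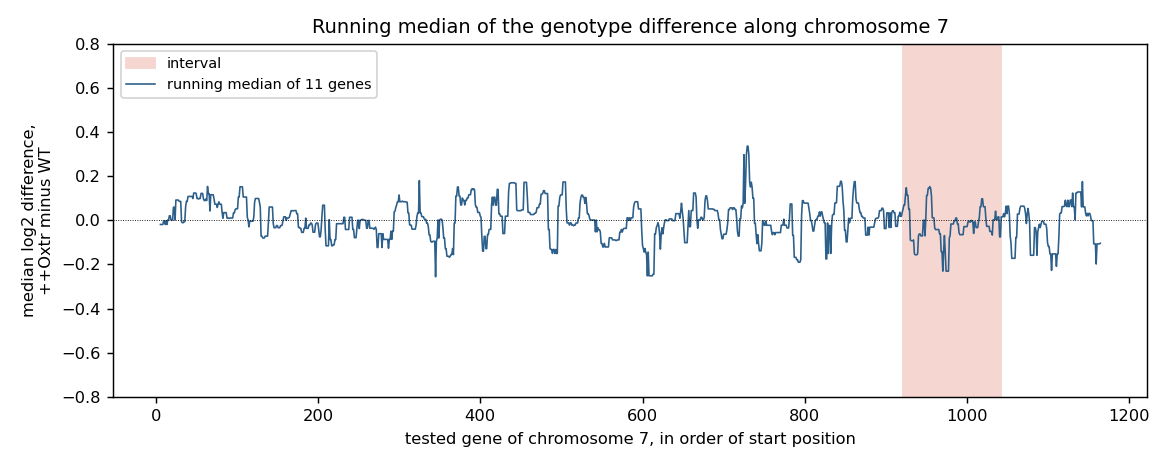
Running median of the log2 difference (++Oxtr minus WT) over 11 tested genes, along chromosome 7 in gene order, with the interval shaded. The line stays within 0.25 of 0 at all 122 windows centred in the interval and at 98.8% of the 1037 windows outside it.

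Each library on its own gave the same picture. The members' median log2 deviation from the mean of the 4 libraries was 0.02 in ++Oxtr replicate 3 and -0.04 in replicate 4, against 0.02 in WT replicate 5 and 0.01 in WT replicate 6. The members took 0.716% and 0.665% of the counts in the ++Oxtr libraries, and 0.702% and 0.704% in the WT libraries. At the edges, the first gene inside, Rbbp6 (a ubiquitin ligase that binds the retinoblastoma protein), had a log2 difference of 0.04 ± 0.16 (SE), and the nearest gene below the bound, Cacng3, had 0 counts in every library. The last gene inside, Chst15 (a chondroitin sulfotransferase), had 0.02 ± 0.22, and Oat (ornithine aminotransferase), the nearest above the bound, 0.12 ± 0.13.

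Counted gene by gene, the stretch was close to the table as a whole. Both ++Oxtr libraries lay on one side of both WT libraries in 32 of the 122 tested members, against a background of 26.1% of all genes tested, and 15 were higher (background 14.5%) and 17 lower (background 11.7%). With a 2-fold ratio of the means and at least 0.5 CPM in the higher group, 3 members were left, against a background of 3.29%. These were Cuzd1 and Aqp8, both higher in ++Oxtr (background 2.03%), and Gsg1l, lower in ++Oxtr (background 1.26%). Leaving out 1 library, which makes separation easier, gave 8 without ++Oxtr replicate 3 (background 6.68%), 6 without ++Oxtr replicate 4 (background 11%), 11 without WT replicate 5 (background 8.93%) and 7 without WT replicate 6 (background 6.48%). With a 1.5-fold ratio and all libraries there were 5 (background 7.07%). Across all genes, edgeR's quasi-likelihood test called 0 genes higher (background 0%) and 0 lower (background 0%) at an adjusted p of 0.05, and so no member. At an unadjusted p under 0.05 it gave 324 genes higher (background 2.12%) and 69 lower (background 0.451%), with 1 member in each direction. DESeq2 called Cuzd1 (higher, background 0.438%) and Gsg1l (lower, background 0.0196%) and no other member, and without WT replicate 6 it no longer called Gsg1l (adjusted p = 0.0746, 0.0242 or less with any other library left out). Nothing is read from these counts, since the contrast chose the stretch.

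Aqp8, a water channel, was set apart by 1 library. It had 17 and 142 counts in ++Oxtr replicates 3 and 4, and 18 and 14 counts in the WT libraries. The level was 9.48 CPM in ++Oxtr replicate 4 and 1.10 CPM in replicate 3, against 1.07 and 0.879 CPM in WT. Its log2 difference of 2.43 ± 1.11 (SE) was 0.17 without ++Oxtr replicate 4. The other 13 members higher in both ++Oxtr libraries had log2 differences of 0.07 to 0.76, and the other 16 lower members -0.61 to -0.06.

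Around Gsg1l, no tested neighbour differed as much. Katnip, a gene of cilia that ends 3.63 kb before the deposited start of Gsg1l, was at 54.15 and 73.3 CPM in the ++Oxtr libraries, against 65.4 and 79.6 CPM in the WT libraries. The groups overlapped, with a log2 difference of -0.19 ± 0.20 (SE). Xpo6, which exports actin from the nucleus and starts 19.3 kb beyond Gsg1l, was at 108 and 105 CPM in ++Oxtr, against 116 and 120.5 CPM in WT. These groups did not overlap, yet the log2 difference was only -0.15 ± 0.09. Over the 5 tested genes on each side the median was -0.09, with 4 of 10 above 0 (background 49.2%). The range was -1.37 (Lat) to 0.58 (Il4ra). In 3 of 10, Il4ra, Xpo6 and Spns1, the groups did not overlap (background 26.1%).

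Lat and Il4ra, the extremes among those neighbours, are genes of immune signalling. Lat, an adaptor of the T cell receptor, was at 3.50 and 1.20 CPM in ++Oxtr, against 9.10 and 3.08 CPM in WT. It was highest in WT replicate 5, the groups overlapped, and without that library its log2 difference was -0.39. Lymphocyte markers, none at 0, were also highest there, with sums of 38.2 and 20.1 CPM in ++Oxtr and 71.55 and 23.9 CPM in WT replicates 5 and 6. Their part in the Lat values was not tested. Il4ra, the interleukin 4 receptor subunit, was at 85.5 and 122 CPM in ++Oxtr, against 62.0 and 77.4 CPM in WT. Both ++Oxtr libraries were higher, and the difference of 0.58 ± 0.23 (SE) was 0.29 without ++Oxtr replicate 4.

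Among the other neighbours of Gsg1l, Sbk1, a kinase gene, was at 59.7 and 40.7 CPM in ++Oxtr, against 48.1 and 105 CPM in WT. Only WT replicate 6 stood apart, and without it the difference of -0.61 was 0.06. Nsmce1 and Gtf3c1 on one side, which serve DNA repair and transcription by RNA polymerase III, had differences of -0.09 each. Spns1 and Nfatc2ip on the other, a lysosomal transporter and a partner of the NFAT factor, had 0.20 ± 0.11 and 0.14 ± 0.24. Il21r, the interleukin 21 receptor, was at 5.05 and 4.14 CPM in ++Oxtr, against 6.13 and 1.88 CPM in WT.

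**Figure D3:**
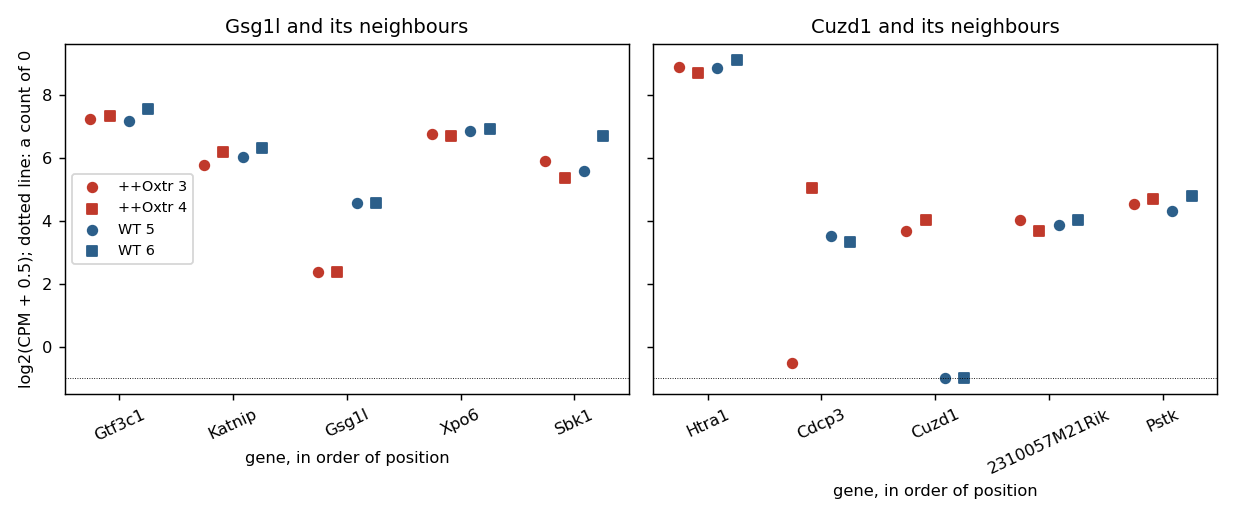
Level of Gsg1l, Cuzd1 and the 2 nearest tested genes on each side in each library, as log2(CPM + 0.5), with ++Oxtr in red and WT in blue. Gsg1l and Cuzd1 separate the genotypes in opposite directions, while the libraries of the genotypes overlap for their neighbours other than Xpo6.

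Around Cuzd1, the tested neighbours did not follow it either. Cdcp3, which like Cuzd1 carries CUB domains, ends 2.10 kb before the deposited start position of Cuzd1. Cdcp3 is on the plus strand and Cuzd1 on the minus strand, so the gap lies between their 3' ends and not their promoters. Cdcp3 had 3 and 486 counts in ++Oxtr replicates 3 and 4, and 184 and 154 counts in WT replicates 5 and 6. It was thus nearly missing from 1 ++Oxtr library and highest in the other, where Cuzd1 had 191 and 235 counts. Its log2 difference of 0.66 ± 1.78 (SE) was -5.67 without ++Oxtr replicate 4. Fam24b and Fam24a, the next rows beyond Cuzd1, were too low to test. Fam24b had 2 and 1 counts in ++Oxtr against 1 and 0 in WT, and Fam24a had 3 and 1 counts against 0 and 0. In CPM, both ++Oxtr libraries lay above both WT libraries in these rows, the direction of Cuzd1, but at very few counts.

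The next tested genes were level between genotypes. The row 2310057M21Rik was at 15.8 and 12.4 CPM in ++Oxtr, against 14.2 and 15.8 CPM in WT. Pstk, which phosphorylates the transfer RNA for selenocysteine, was at 22.6 and 25.7 CPM, against 19.6 and 27.3 CPM in WT. Both pairs of groups overlapped. Ikzf5, a zinc finger factor of the Ikaros family, was at 2.33 and 2.47 CPM in ++Oxtr, against 2.80 and 2.76 CPM in WT, a log2 difference of -0.21 ± 0.38. Acadsb, an enzyme of branched amino acid breakdown, and Bub3, of the spindle checkpoint, had -0.10 ± 0.20 and 0.05 ± 0.12. On the other side, Tacc2, Btbd16, Plekha1 and Htra1 had 0.08, 0.45, 0.00 and -0.20. Over the 5 tested genes on each side of Cuzd1 the median was 0.02. In 1 of 10, Ikzf5, the groups did not overlap (background 26.1%).

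Between Gsg1l and Cuzd1 lie 5.23 Mb with 101 tested members. Their median log2 difference was -0.03. In 25 of them the groups did not overlap (background 26.1%), and in 0 of them with a 2-fold ratio (background 3.29%). Leaving Gsg1l and Cuzd1 aside, 111 of 120 tested members had a ratio of means within 1.5-fold in either direction.

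The deposited rows themselves bear on the counts. Fgfr2, the receptor of fibroblast growth factors, is given a span of 2961 kb, from 129764181 to 132725079, which covers 22 other members, among them Cuzd1 on the same strand. Fgfr2 was at 109 ± 15.2 CPM in ++Oxtr and 115 ± 6.77 CPM in WT (SD, n = 2 each), and overlapping spans make the division of reads between such rows uncertain. In all, 74 members share bases with another row, among them Sult1a1, Apobr, Coro1a, Prss8 and Ccdc189. All 9 members with 0 counts in every library do so, for example Hsd3b7, a bile acid enzyme, and Pagr1a, a partner of histone methyltransferases. A count of 0 allows up to 0.178 to 0.200 CPM per library (3 counts in each), and for such overlapped rows it does not show that the gene is silent. The other 16 members not tested had at most 11 counts in any library.

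On-off rows were rare in the table. Only 4 of 21958 rows had 0 counts in both libraries of one genotype and at least 20 in each of the other, and Cuzd1 had the highest counts of them. The others, named after their values were seen, were Mup9 and Kif12 on chromosome 4, with 61 and 30 and with 40 and 20 counts in ++Oxtr against 0 in WT, and Gm14403 on chromosome 2, with 0 in ++Oxtr against 48 and 58 in WT. Mup9 belongs to a family of near-identical genes and its counts are uncertain. The levels of Cuzd1 helped to choose the stretch, so its place among these rows repeats that choice.

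The most abundant members were level between genotypes. Htra1, a secreted serine protease, was highest, at 167 and 142 FPKM in ++Oxtr against 164 and 192 FPKM in WT. Maz, a zinc finger factor of GC-rich promoters, was at 94.0 and 78.3 FPKM, against 89.1 and 84.1 FPKM in WT. Both groups of values overlapped. Eif3c, a subunit of a translation initiation factor, was at 72.6 and 77.3 FPKM in ++Oxtr, against 73.3 and 77.7 FPKM in WT. Mapk3, the kinase ERK1, was at 76.0 and 69.1 FPKM in ++Oxtr, against 67.1 and 64.4 FPKM in WT, apart but with a log2 difference of only 0.15 ± 0.10 (SE). The 10 members with the highest mean FPKM, which also include Atxn2l, Tufm, Bag3, Ypel3 and Nupr1, had log2 differences of -0.58 to 0.15. The lowest, -0.58 ± 0.35 for the stress-response gene Nupr1, came with 29.4 and 22.4 FPKM in ++Oxtr, against 27.1 and 50.4 FPKM in WT, where replicate 6 was highest.

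By role, the medians of the lists stayed between -0.10 and 0.03. Of 27 genes of the counterpart of the recurrently deleted human stretch, 24 were tested, 3 were higher in both ++Oxtr libraries (background 14.5%, as for each role list) and 0 lower (background 11.7%, likewise), and the median log2 difference was -0.02. Sult1a1, a sulfotransferase of phenols and estrogens, was among the 3, at 34.4 and 25.9 CPM in ++Oxtr, against 21.2 and 14.3 CPM in WT. It had the largest difference of the list, 0.76 ± 0.29 (SE). Mapk3 and Tlcd3b were the others, and Ypel3 had 0.15. Of 12 zinc finger genes, such as Zfp771 at 36.7 and 32.1 CPM in ++Oxtr and 37.1 and 31.8 CPM in WT, 2 were higher and 3 lower, with differences of -0.21 to 0.21 (-0.02 for Zfp768). Among 19 tested genes of chromatin, transcription and RNA handling, Eif3c and Atxn2l among the most abundant, 2 were higher and 2 lower, with a median of 0.00. DESeq2 and edgeR called 0 members of these 3 groups.

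The enzymes and signalling genes gave the same picture. Of 9 tested metabolic enzymes, 2 were higher in both ++Oxtr libraries and 1 lower, with a median log2 difference of -0.07. Tufm, the mitochondrial elongation factor, was at 84.5 and 79.5 CPM in ++Oxtr, against 81.7 and 103 CPM in WT. Dctpp1, a nucleotide pyrophosphatase, had 0.01 ± 0.37. Of 12 tested genes of growth factor and kinase signalling, 1 was higher and 1 lower, with a median of 0.03. Tgfb1i1, a coactivator of steroid receptors, was at 156 and 180 CPM in ++Oxtr, against 162 and 136 CPM in WT, and these overlapped. Of 9 tested proteases and secreted proteins, Cuzd1 alone was apart, the median was -0.10, and the protease gene Prss36 had -0.10 ± 0.24. Of 7 tested channels and transporters, 2 were higher in both ++Oxtr libraries, Aqp8 and Spns1 (background 14.5%). In the same list 2 were lower, Gsg1l and Xpo6 (background 11.7%). These shares were above the backgrounds, in a list that holds Gsg1l, and that difference was not tested. The median was -0.10, and Orai3, a calcium channel, had -0.10 ± 0.14.

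**Figure D4:**
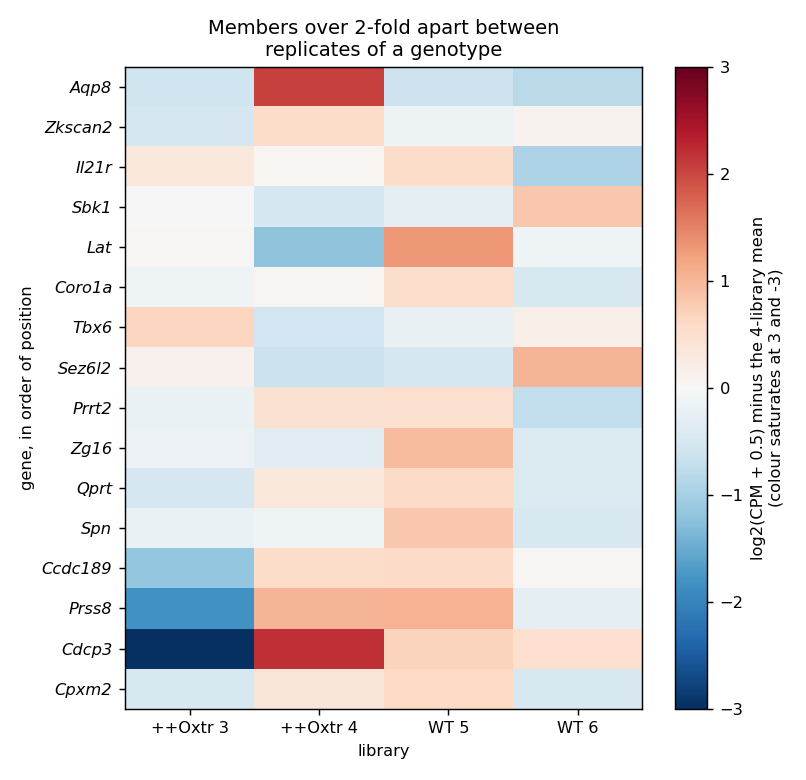
Colour gives log2(CPM + 0.5) minus the 4-library mean for 16 of the 17 tested members over 2-fold apart between replicates of a genotype, with libraries in columns and genes in order of position in rows. Cdcp3, Prss8 and Ccdc189 are low in ++Oxtr 3, and Lat, Spn and Zg16 are high in WT 5.

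Several members differed more between replicates than between genotypes. Between the ++Oxtr libraries 8 tested members were over 2-fold apart (6.56%, against 10.3% of all genes tested), and between the WT libraries 11 (9.02%, against 7.13%). In Prss8, the epithelial protease prostasin, levels were 2.27 and 19.2 CPM in ++Oxtr replicates 3 and 4, against 19.5 and 7.60 CPM in WT replicates 5 and 6. Ccdc189, a coiled-coil gene, was at 5.31 and 18.8 CPM in ++Oxtr, against 19.15 and 12.8 CPM in WT. Both, like Cdcp3, were lowest in ++Oxtr replicate 3, the library with the lowest sum of oviduct and ciliated markers, in which Ovgp1 stood at 15.9 CPM and none was at 0. The part of those markers in these values was not tested.

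Several immune genes of the stretch were highest in 1 WT library. Spn, the leukocyte surface protein CD43, was at 6.41 and 6.81 CPM in ++Oxtr, against 13.4 and 5.15 CPM in WT. Coro1a, an actin regulator of leukocytes, was at 24.5 and 28.1 CPM in ++Oxtr, against 38.9 and 19.0 CPM in WT. Both were highest in WT replicate 5 and lowest in WT replicate 6, so their groups overlapped. Of 11 tested immune members, Il4ra was higher and Apobr, a lipoprotein receptor of macrophages, lower in both ++Oxtr libraries, with a median log2 difference of -0.06. Sh2b1, an adaptor of cytokine and insulin receptors, had 0.02 ± 0.09. The summed lymphocyte markers given above were highest in WT replicate 5 too, but lowest in ++Oxtr replicate 4, and their part in these values was not tested. Sez6l2, a neuronal membrane protein gene, was highest in WT replicate 6, at 16.3 CPM, against 5.29 CPM in WT replicate 5, beside 8.55 and 4.74 CPM in ++Oxtr. Luteal markers were highest in that library too, at 5333 CPM in sum and 440 to 867 CPM in the other 3.

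**Figure D5:**
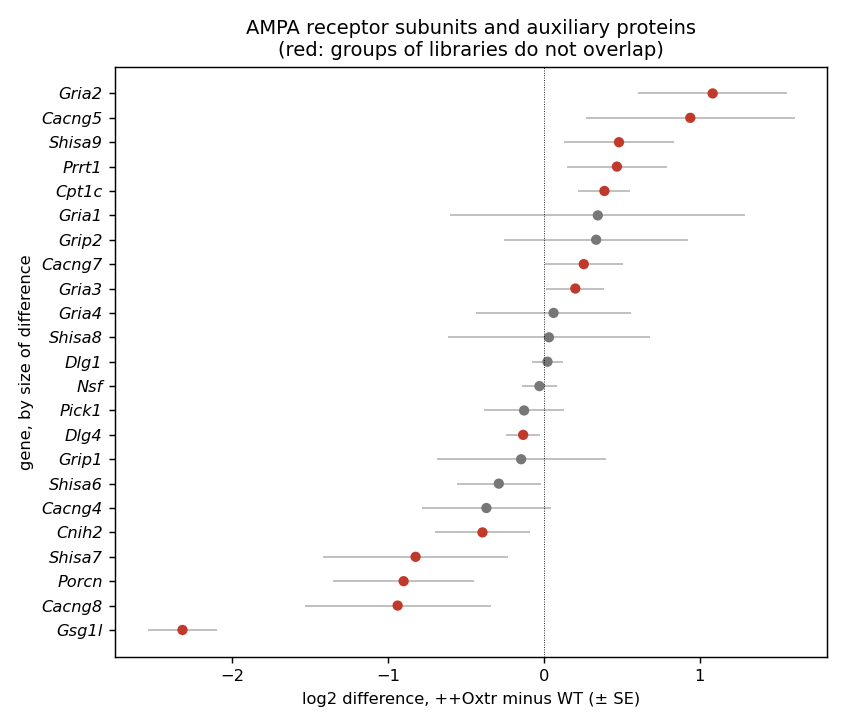
Log2 difference (++Oxtr minus WT, bars show SE) of the 23 tested AMPA receptor subunits and auxiliary proteins, sorted by size. Gsg1l lies at -2.32, and the other 22 genes between -0.94 and 1.08.

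Other genes of the AMPA receptor did not show a difference as large as that of Gsg1l. Of a list of 28 subunits, auxiliary and anchoring proteins, 23 were tested. edgeR called 0 in either direction (background 0% for each). DESeq2 called Gsg1l alone (lower, background 0.0196%). Nothing is read from that call, since the levels of Gsg1l chose the stretch. Without Gsg1l, the remaining 22 had a median log2 difference of 0.03, against 0.00 over all genes tested, with 7 higher and 5 lower in both ++Oxtr libraries. These shares were above the backgrounds of 14.5% higher and 11.7% lower over all genes tested, and that difference was not tested. Gria3, the channel subunit with the highest FPKM, was at 26.8 and 26.7 CPM in ++Oxtr, against 25.6 and 20.97 CPM in WT, higher in both ++Oxtr libraries by 0.20 ± 0.19. Gria2, the subunit that limits calcium entry, had 27 and 36 counts in ++Oxtr, against 17 and 15 counts in WT. Its groups did not overlap, with a difference of 1.08 ± 0.48 (SE) at a low level. Cacng8, an auxiliary subunit, had 8 and 15 counts in ++Oxtr, against 28 and 20 counts in WT, a difference of -0.94 ± 0.60. The paralog Gsg1 had 0 counts in the ++Oxtr libraries and 0 and 1 counts in the WT libraries. By mean FPKM over the 4 libraries, Gsg1l at 3.596 lay between Dlg4, an anchoring protein, at 3.71 and Shisa6, another auxiliary subunit, at 3.30.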

How the data were processed

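The deposited table gives, per the file headers, a read count and an FPKM value per gene and library. The counts are raw, and the deposited FPKM equals the count divided by the table's Length column and by the library total. Per the submitters' processing notes the build is mm10. Not given in the sources used here: aligner, counter, strand setting and annotation. The table does not name its build. No member had the same start and end in GENCODE M21, which is of GRCm38, another name of mm10. The starts there were offset by a median of 400828 bases. The deposited positions of the members thus do not match the build of the notes. Positions given here are the table's own, and those of the promoters are of GRCm38.p6.

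Library totals were 15229810 and 15319853 counts for ++Oxtr and 16517764 and 16105024 for WT. Replicate pairs were not duplicates of one library (chi-square per degree of freedom of 43.1 for ++Oxtr and 41.4 for WT). edgeR 4.0.16 (R 4.3.3) was fitted on the counts of all 4 libraries with TMM and filterByExpr (minimum count 10, 15311 genes), and its quasi-likelihood p-values were adjusted by Benjamini-Hochberg over all genes. DESeq2 1.42.0 and limma 3.58.1 were alternatives, with other scalings and filters and each library left out. Intervals (95%) and floors cover counting error only.

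Genes named were Gsg1l and Cuzd1, members apart by 2-fold, the 5 tested neighbours on each side of both genes, the 10 highest by FPKM, the 3 highest of each role list and the rows at the bounds. Others were chosen after their values were seen, and some that the rule names are not reported here. The members and lists were chosen with earlier results of these data known.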

Additional observations from a re-analysis of the deposited data

How the results depend on the processing

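No paired analysis was possible because the groups share no replicate number. With other scalings (DESeq2 size factors, library totals, upper quartile), other filters, limma on log2(FPKM + 1) or log2(FPKM + 0.1) and an adjusted p threshold of 0.10, edgeR or limma called 0 genes over the table and 0 members. DESeq2 called 70 genes and 2 members, with Gsg1l at a log2 difference of -2.33 and Cuzd1 at 10.28. With 0 counts in WT, this Cuzd1 value is no bound. Neither are the Cuzd1 values of edgeR, which depend on a prior count. Without 1 library edgeR called 0 to 65 genes (65 without ++Oxtr replicate 4) and 0 members. DESeq2, with libraries left out as chosen after seeing the data, called 54 genes and 2 members without ++Oxtr replicate 3, 494 and 4 without ++Oxtr replicate 4, 158 and 2 without WT replicate 5, and 44 and 1 without WT replicate 6. In the same order Gsg1l was at -2.34, -2.31, -2.33 and -2.32, and Cuzd1 at 10.44, 10.10, 10.24 and 10.32. The edgeR filter kept 15662, 15656, 15616 and 15654 genes in that order, with 122, 123, 123 and 123 members among them. The counts over all genes changed along with those of members. Nothing about the stretch is therefore read from the member counts of these fits. In edgeR Gsg1l ran from -2.33 to -2.31 and Cuzd1 from 10.63 to 10.96. On the log2(FPKM + 1) scale, which understates low genes, Gsg1l was at -1.67 and Cuzd1 at 2.84, and with log2(FPKM + 0.1) they were at -2.24 and 5.97.

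The members' median difference ran from -0.047 to 0.00031 with a library left out in edgeR, and was -0.055 in DESeq2 without ++Oxtr replicate 3. With bounds 2 Mb wider on each side it was -0.01, and with narrower ones -0.03. A 1.5-fold threshold set 5 members apart (7.07% of all genes tested), and fits without 1 library 6 to 11 (6.48% to 11% of all genes tested). The neighbours of Gsg1l had a median of -0.19 to 0.036 in edgeR without 1 library, and in DESeq2 of -0.021 without ++Oxtr replicate 3, -0.19 without WT replicate 5 and 0.033 without WT replicate 6, where the sign turned. Those of Cuzd1 had -0.12 to 0.081 in edgeR without 1 library. In DESeq2 they had -0.011 and -0.059 without ++Oxtr replicates 3 and 4, and -0.12 and 0.078 without WT replicates 5 and 6. With no filter they had 0.34, where rows of very few counts such as Fam24b and Fam24a are let in. Their median was -0.028 with log2(FPKM + 1), -0.094 with log2(FPKM + 0.1) and -0.067 with up to 10 neighbours on each side (17 genes). Low counts limit what can be said of the 25 members not tested.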
